A study of Mus musculus with 9 samples.

Results

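The collagen, laminin and nidogen genes were compared across 9 libraries of poly(A) RNA from mouse brain. Every gene was taken whose symbol is Col, a number, a and a number, or Lama, Lamb or Lamc with a number, or Nid1 or Nid2, and which reached a value of at least 10 in 3 or more libraries. Of 57 such genes in the files 56 passed, made up of 43 collagens, 11 laminins and 2 nidogens, among 15411 genes that passed the same minimum and 21853 genes in all. The gene left out was Col10a1, the collagen of growth plate cartilage, with 34.0 in 1 HD-WNT5B library and 0 to 5.58 in the other 8 libraries. The members nearest to the minimum were Col9a1 and Col28a1, where the value that counts, the lowest of the 3 highest, was 16.9 and 19.9, against 3.69 for Col10a1. Of the 56 genes, 51 reached 10 in all 6 control-virus libraries, and Col3a1, Col9a1, Col13a1, Col22a1 and Col28a1 did not.

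Collagens are secreted or membrane-bound proteins whose chains wind into triple helices. Fibrillar collagens form the tensile fibres of connective tissue, fibril-associated collagens sit on their surface, and type VI collagen forms beaded filaments at the border of cells. Basement membranes are thin sheets in which a network of type IV collagen and a network of laminin trimers, each of an alpha, a beta and a gamma chain, are tied together by nidogens. In brain such sheets surround the blood vessels and underlie the meninges, and astrocyte endfeet, endothelium and mural cells contribute to them.

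There were 3 groups of 3 libraries. HD-WNT5B libraries came from N171-82Q mice, a transgenic model of Huntington disease (HD) that expresses an N-terminal fragment of huntingtin with an expanded glutamine tract from the prion promoter, given the virus pAAV-GFAP(pro)-WNT5B-P2A-mCherry. HD-Control libraries came from N171-82Q mice given pAAV-GFAP(pro)-Control-mCherry. WT-Control libraries came from wild-type mice given that same control virus, so that all 3 groups carried an mCherry virus driven by the astrocyte promoter GFAP and no group was without virus. WNT5B is a secreted Wnt ligand of the branch that acts without beta-catenin. According to the series text the virus was injected into the striatum; the sample labels say only brain. They give neither age nor sex nor which animal a library came from, so p-values measure only the spread between these libraries, which may be technical.

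Values are normalised read counts per gene as the authors deposited them, not divided by gene length. Summed values were 79.9 to 83.8 M in HD-WNT5B, 55.6 to 55.8 M in HD-Control and 54.6 to 54.7 M in WT-Control libraries. The step between low values puts depth at 37.3 to 52.1 M reads in HD-WNT5B, 69.8 to 90.6 M in HD-Control and 67.8 to 77.8 M in WT-Control libraries. The HD-WNT5B libraries stood apart from the rest: 14291 to 14588 genes were above 0 in them, against 17223 to 17349 in HD-Control and 17027 to 17132 in WT-Control libraries. The median SD of the log2 values of the 56 genes was 0.467 in HD-WNT5B, 0.0839 in HD-Control and 0.0752 in WT-Control libraries. Of 12340 genes with at least 100 in all 6 control-virus libraries, 277 (2.24%) were listed at 0 in at least 1 HD-WNT5B library. Among the 41 collagen, laminin and nidogen genes under that same minimum they were 5 (12.2%), namely Col1a2, Col5a2, Col6a5, Lama3 and Nid1. The 41 genes were not matched to all genes for level or transcript length. Wnt5b itself had 184, 22.5 and 212 in HD-WNT5B, 63.8, 44.2 and 49.3 in HD-Control and 74.6, 63.8 and 57.7 in WT-Control libraries. The second HD-WNT5B library was below all 6 control-virus libraries, and the difference from HD-Control did not pass the test (log2 fold change 0.88, SE 0.73, limma adjusted p = 0.298). Whether the counted reads include the viral transcript is not given in the sources used here. The 11 striatal projection neuron markers were above 0 in all 9 libraries, with sums of 369390 to 382415 in HD-WNT5B, 493932 to 499165 in HD-Control and 574889 to 575515 in WT-Control libraries. Of them 3 were higher and 6 lower in HD-WNT5B than in HD-Control, against 35.8% and 41.7% of all genes tested. In HD-Control 3 were higher and 8 lower than in WT-Control, against 24.5% and 20.7% of all genes.

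Per kilobase of the longest annotated transcript, Col6a1, a core chain of type VI collagen, had the highest level of the family in every group, 891 ± 135 in HD-WNT5B, 2036 ± 26.1 in HD-Control and 1589.9 ± 12.4 in WT-Control libraries (mean ± SD of the value per kb, n = 3). In HD-Control libraries it was followed by Col4a2 (584 ± 14.1), Col4a1 (481 ± 16.03), Lamc1 (412 ± 12.1) and Col25a1 (409 ± 5.001), and the SDs of Lamc1 and Col25a1 overlapped. In WT-Control libraries it was followed by Col11a2 (627 ± 34.6), Col4a2 (516 ± 9.27), Lamc1 (399 ± 12.8) and Lamb1 (378 ± 5.16). In HD-WNT5B libraries Col11a2 (555 ± 67.4) and Col9a3 (541 ± 80.3) stood next, with overlapping SDs, ahead of Lamb2 (378 ± 29.03). The widespread chains of vascular basement membrane, Col4a1, Col4a2, Lamb1, Lamb2 and Lamc1, were thus among the best expressed members in both control-virus groups. The fibrillar collagens of scar and skin were not: Col1a1 reached 15.8 ± 1.54 per kb in HD-Control and 41.6 ± 3.47 in WT-Control libraries, and Col3a1 1.84 ± 0.475 in HD-Control and 19.1 ± 3.63 in WT-Control libraries. All values of the family together made up 0.0348 to 0.0362% of the summed values of HD-WNT5B libraries, 0.0732 to 0.0744% in HD-Control and 0.0820 to 0.0827% in WT-Control libraries. In bulk tissue, fewer cells of a type and less RNA per cell cannot be told apart.

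**Figure D1:**
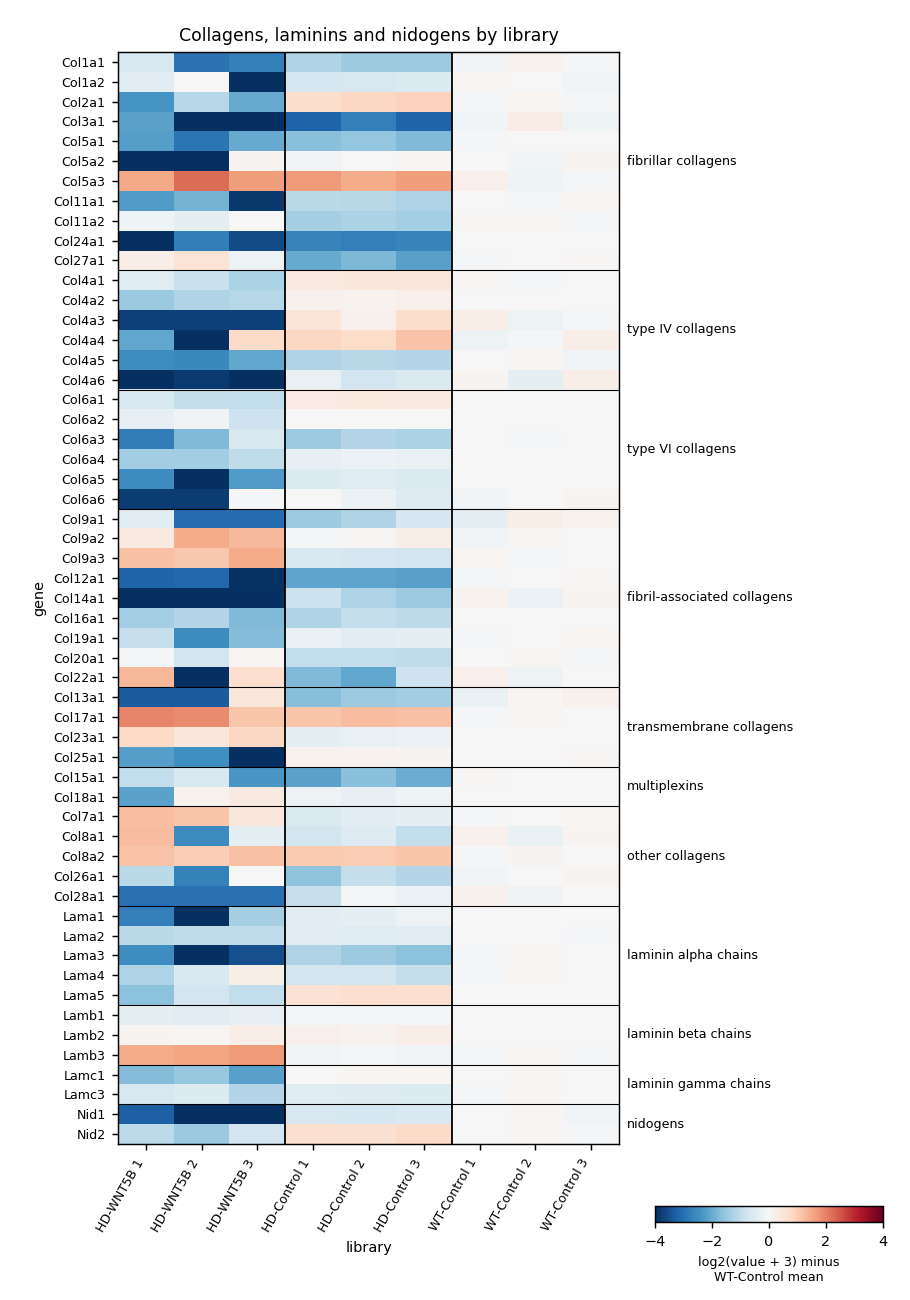
Each row is a gene of the family and each column 1 library; colour gives log2(value + 3) minus the mean of the WT-Control libraries on the same scale, with blue lower, red higher and a scale that ends at -4 and 4. The HD-Control libraries resemble one another within each row, while in many rows the HD-WNT5B libraries differ among themselves, as for Col1a2, Col5a2 and Col4a4.

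HD-Control was first compared with WT-Control, which asks how the family differs with the transgene when both groups carry the control virus. In the fit over all 9 libraries, 5 fibrillar and 5 fibril-associated collagens were among the 14 genes called lower in HD-Control. With the 6 control-virus libraries alone they were 8 and 8 of 34, so they were no longer most of the lower genes. Genes called higher in the fit over all 9 libraries were scattered over chains of laminin, types V, VI, VIII and XVII collagen and a nidogen. In the fit over all 9 libraries 22 of 56 genes changed, 8 higher and 14 lower, where 45.1% of all 15411 genes were called (24.5% higher and 20.7% lower). The median log2 fold change was -0.45 over the 56 genes and 0.02 over all genes tested. Because that fit takes 1 spread from all groups, the scatter of the HD-WNT5B libraries enters it. With the 6 libraries of this comparison alone, 48 of 56 genes were called, 14 higher and 34 lower, against 83.8% of all genes (43.5% higher and 40.2% lower). Libraries of HD-Control and WT-Control did not overlap for 13 genes on the higher and 35 on the lower side, against 84% of all genes (43.6% and 40.4%). With a variance weight per group 13 were higher and 34 lower, against 82.9% of all genes (43.1% and 39.9%). The count in the fit over all 9 libraries was 5 higher whichever control-virus library was left out, and 22 and 23 lower without the second and without the third HD-WNT5B library.

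Of the 11 fibrillar collagens 5 were lower, 1 was higher and 5 were not called, with a median of -1.31. Col3a1, type III collagen of vessel walls and loose connective tissue, had 8.77, 13.3 and 8.62 in HD-Control libraries, against 97.1, 129 and 91.95 in WT-Control libraries. Col24a1, a minor fibrillar collagen known from developing bone, had 109, 106 and 111 in HD-Control, against 718, 734 and 708 in WT-Control libraries. Both genes were lower in each HD-Control library than in any WT-Control library. Col3a1 reached 10 in all libraries of WT-Control alone and passed the minimum through that group, so its lower value in HD-Control is no independent result. The log2 fold change was -3.05 for Col3a1 (SE 0.76, limma adjusted p = 0.011) and -2.69 for Col24a1 (SE 0.31, adjusted p = 0.000166). Col27a1, a fibrillar collagen of cartilage, had 171, 197 and 153 in HD-Control, against 678, 699 and 716 in WT-Control libraries (-1.995, SE 0.20, adjusted p = 7.91e-05). Col5a1, a chain of the type V collagen that sets fibril width, had 305, 331 and 286 in HD-Control, against 943, 991 and 981 in WT-Control (-1.65, SE 0.23, adjusted p = 0.000483). Col11a2, a chain of type XI collagen in cartilage fibrils, had 1516, 1571 and 1484 in HD-Control, against 3926, 3901 and 3551 in WT-Control (-1.31, SE 0.09, adjusted p = 9.59e-06). In these 3 genes, too, no HD-Control library reached the lowest WT-Control library.

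Col5a3, another chain of type V collagen, went the other way and was the gene with the largest rise of the family in HD-Control. Its values were 737, 629.7 and 722 in HD-Control, against 259.7, 199 and 219.7 in WT-Control libraries, with every HD-Control library above every WT-Control library (1.62, SE 0.20, limma adjusted p = 0.000299). The type I chains Col1a1 and Col1a2, the bulk collagen of skin, bone and scar, averaged 93.9 ± 9.15 and 234 ± 11.7 in HD-Control, against 247 ± 20.6 and 365 ± 27.7 in WT-Control libraries (SD, n = 3). Their libraries did not overlap, but the fit over all 9 libraries called neither (log2 -1.37 and -0.63, adjusted p = 0.0792 and 0.787). Fitted on the 6 control-virus libraries, they gave adjusted p = 1.66e-10 and 2.27e-07.

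Of the 9 fibril-associated collagens 5 were lower, 0 were higher and 4 were not called, with a median of -1.07. Col12a1, which decorates type I fibrils, had 187, 184 and 179 in HD-Control, against 776, 816 and 841 in WT-Control libraries (-2.13, SE 0.24, limma adjusted p = 0.000147). Col14a1, a related collagen that helps organise fibrils, had 41.5, 31.7 and 26.5 in HD-Control, against 85.9, 65.4 and 83.9 in WT-Control (-1.18, adjusted p = 0.00922). Col16a1 averaged 687 ± 54.7 in HD-Control, against 1446 ± 22.2 in WT-Control (-1.07, adjusted p = 0.000567). For each of the 3 the HD-Control libraries lay wholly below the WT-Control libraries. The other 2 were Col20a1 (-1.003) and Col9a3 (-0.68), a chain of cartilage type IX collagen. Among the multiplexins, basement-membrane collagens whose ends are cut off as anti-angiogenic fragments, Col15a1 fell to 78.1, 108 and 86.8 in HD-Control, against 362, 349.7 and 351 in WT-Control libraries (-1.94, SE 0.40, adjusted p = 0.00456). Col18a1, the source of endostatin, averaged 183 ± 9.08 in HD-Control, against 216 ± 4.28 in WT-Control, and was not called (-0.24, adjusted p = 0.782).

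**Figure D2:**
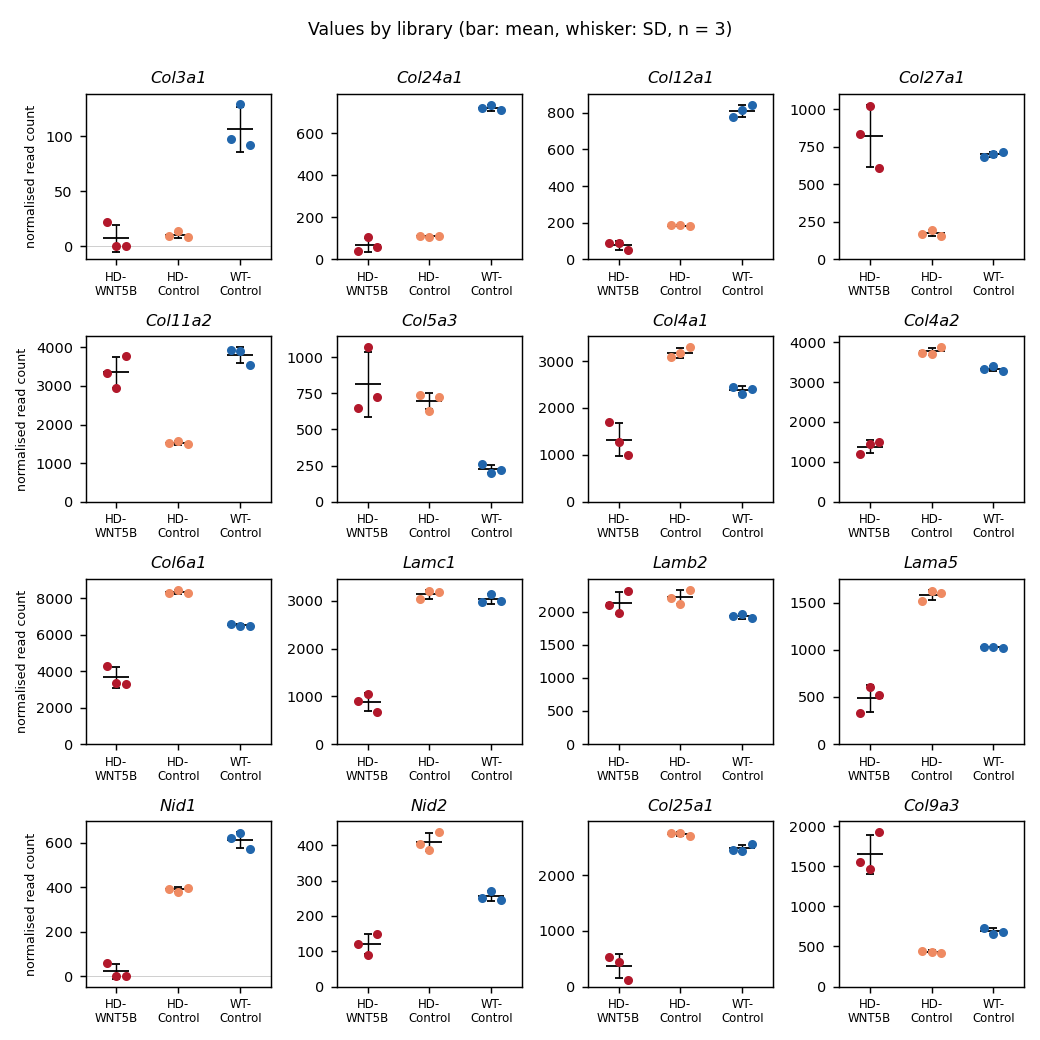
Normalised read counts of 16 genes in each library, grouped as HD-WNT5B, HD-Control and WT-Control on the x axis, with the mean as a bar and the SD as a whisker (n = 3 libraries). Col24a1, Col12a1 and Col27a1 are low in all 3 HD-Control libraries, and Col27a1 and Col11a2 are back near the WT-Control values in the HD-WNT5B libraries.

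The basement membrane chains moved by smaller amounts. Of the 6 type IV collagens 1 was lower and 5 were not called in the fit over all 9 libraries (median 0.30). With the 6 control-virus libraries alone 4 were higher and 2 lower, against 43.5% and 40.2% of all genes. Col4a1 and Col4a2, whose chains form the common type IV network, lie head to head on chromosome 8 of mm10 (GENCODE M21), Col4a1 at chr8:11198423-11312826 on the minus strand and Col4a2 at chr8:11312805-11449287 on the plus strand. Their annotated starts are 21 bases apart, so that their 5′ ends overlap and both read away from 1 shared promoter. The 300 bases around each start (250 before, 50 after; RefSeq, GRCm38.p6) are shown 5′ to 3′ on the strand of the gene because the pair is read from this stretch. Capitals mark the 78 bases that both windows hold.
Col4a1 (chr8:11312777-11313076, minus strand): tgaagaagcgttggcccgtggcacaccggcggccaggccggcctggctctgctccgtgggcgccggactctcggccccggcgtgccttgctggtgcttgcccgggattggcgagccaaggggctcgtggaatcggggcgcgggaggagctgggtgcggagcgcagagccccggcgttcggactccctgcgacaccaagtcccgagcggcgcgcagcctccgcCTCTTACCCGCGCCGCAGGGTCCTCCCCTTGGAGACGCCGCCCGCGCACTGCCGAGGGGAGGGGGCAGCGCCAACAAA
Col4a2 (chr8:11312555-11312854, plus strand): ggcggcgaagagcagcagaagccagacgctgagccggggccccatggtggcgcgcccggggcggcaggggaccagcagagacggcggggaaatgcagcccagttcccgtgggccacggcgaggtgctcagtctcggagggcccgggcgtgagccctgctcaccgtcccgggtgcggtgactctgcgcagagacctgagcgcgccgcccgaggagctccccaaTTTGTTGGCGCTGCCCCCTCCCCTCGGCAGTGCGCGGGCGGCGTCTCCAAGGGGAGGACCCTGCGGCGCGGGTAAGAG
Col4a1 had 3085, 3163 and 3294 in HD-Control, against 2447, 2306 and 2405 in WT-Control libraries, and Col4a2 had 3722, 3708 and 3871 in HD-Control, against 3321, 3395 and 3277 in WT-Control. Every HD-Control library exceeded every WT-Control library in both genes, but neither passed in the fit over all 9 libraries (0.41 and 0.18, limma adjusted p = 0.07 and 0.123). In the fit on the 6 control-virus libraries both passed, with adjusted p = 8.84e-11 and 2.05e-06. Col4a5, a chain of the kidney and cochlear type IV network that is encoded on the X chromosome, was lower, with 100.5, 108 and 102 in HD-Control, against 238, 246 and 217 in WT-Control libraries (-1.16, SE 0.22, adjusted p = 0.00268).

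Among the 6 type VI collagens Col6a1 was higher and 5 were not called (median -0.26). Col6a1 had 8273, 8469.5 and 8298 in HD-Control, against 6575, 6506 and 6475 in WT-Control libraries, with no overlap (0.36, SE 0.09, limma adjusted p = 0.0114). Col17a1, the transmembrane collagen of skin hemidesmosomes, had 348, 380.5 and 360.1 in HD-Control, against 151, 166 and 163 in WT-Control (1.17, adjusted p = 0.00345). Col8a2, a short-chain collagen of the cornea, had 195, 191 and 203 in HD-Control, against 87.3, 101 and 91.2 in WT-Control (1.05, adjusted p = 0.00134). Each was higher in all 3 HD-Control libraries than in any WT-Control library. Col25a1, a transmembrane collagen of neurons whose shed part was found in human amyloid plaques, averaged 2738 ± 33.5 in HD-Control, against 2483 ± 62.9 in WT-Control libraries, without overlap but not called (0.14, adjusted p = 0.841, and 8.98e-05 on the 6 libraries).

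Of the 11 laminin chains 3 were higher, Lama5 and Lamb2 among them, 2 were lower (Lama2 and Lamc3) and 6 were not called. Lama5, the alpha chain of laminin-511 in mature vessels, had 1524, 1629 and 1600.0 in HD-Control, against 1032, 1029 and 1025 in WT-Control (0.62, SE 0.20, limma adjusted p = 0.0314). Lama2, the alpha chain of the laminin-211 made by astrocytes, pericytes and muscle, had 668, 653 and 689.5 in HD-Control, against 928, 934 and 890.3 in WT-Control (-0.45, SE 0.09, adjusted p = 0.00355). In both genes the libraries of the groups did not overlap. Lamb2, the beta chain of mature vessel and synaptic laminins, averaged 2220.3 ± 106 in HD-Control, against 1932 ± 35.4 in WT-Control (0.20, adjusted p = 0.0427). Its call was lost when any 1 control-virus library was left out (adjusted p = 0.0575 to 0.155) and that of Lama5 likewise (0.0725 to 0.0922). Lamb1, Lamc1 and Lama4, the chains of embryonic and endothelial laminins, were not called, with log2 fold changes of -0.05, 0.05 and -0.80 (adjusted p = 0.439, 0.821 and 0.0822). With upper-quartile factors the value of Lamc1 was -0.02. Lama4 averaged 198 ± 17.2 in HD-Control, against 346 ± 19.8 in WT-Control libraries, without overlap, and passed on the 6 libraries alone (adjusted p = 2.08e-08).

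The 2 nidogens, which link the laminin and type IV networks, lay on opposite sides of WT-Control. Nid2 had 403, 388 and 437 in HD-Control, against 252, 271 and 245 in WT-Control libraries (0.67, SE 0.21, limma adjusted p = 0.0278, and 0.0677 to 0.106 with any 1 control-virus library left out). Nid1 had 393, 378 and 398 in HD-Control, against 622, 644 and 571 in WT-Control, without overlap. It was not called in the fit over all 9 libraries (-0.65, SE 0.98, adjusted p = 0.641), and its adjusted p on the 6 control-virus libraries was 3.79e-09. Part of the exons of Nid2, 8.4% of their length, overlaps those of the neighbouring gene Rtraf, and the library kit does not keep the strand.

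**Figure D3:**
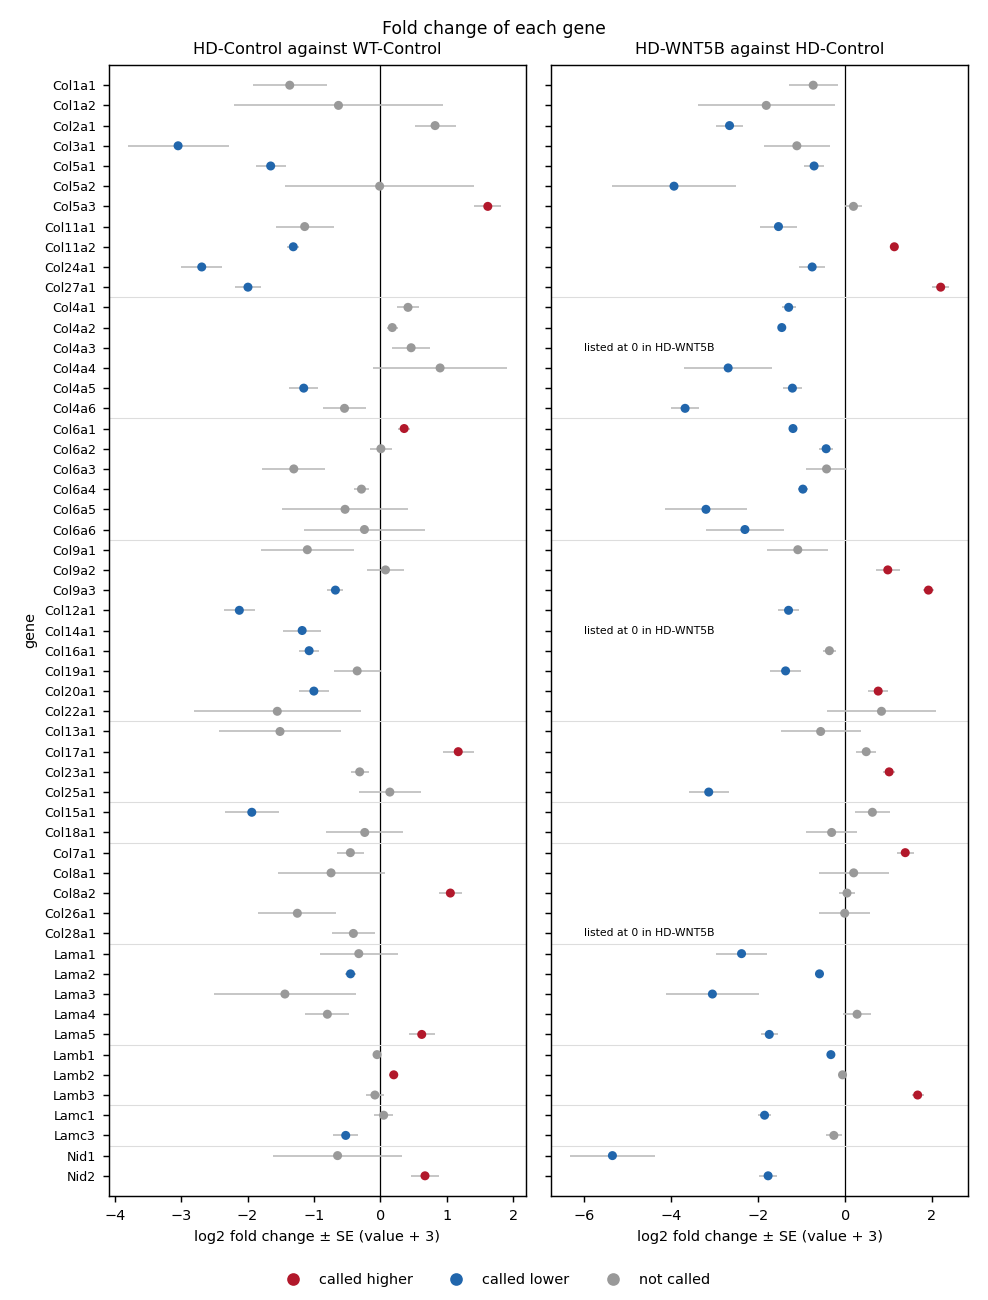
Log2 fold change of log2(value + 3) with its SE for genes of the family, HD-Control against WT-Control at the left and HD-WNT5B against HD-Control at the right. Red marks genes called higher, blue called lower and grey not called (limma, adjusted p of 0.05, all 9 libraries), and 3 genes listed at 0 in every HD-WNT5B library have no point at the right.

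HD-WNT5B was then compared with HD-Control, which asks what differed when the astrocyte virus carried WNT5B in N171-82Q mice. All 6 type IV collagens, 4 of 5 laminin alpha chains, Lamb1, Lamc1 and both nidogens were called lower, while Lama4, Lamb2, Lamc3, Col15a1 and Col18a1 were not called and Lamb3 was higher. Col27a1, Col11a2 and 2 chains of type IX collagen were called higher, though 1 of these chains, Col9a2, not in every setting. Col2a1 and Col11a1, which are cartilage collagens too, were lower. Of 56 genes 38 changed, 9 higher and 29 lower, where 77.5% of all genes tested were called (35.8% higher and 41.7% lower). Libraries did not overlap for 9 genes on the higher and 27 on the lower side, against 78.7% of all genes (36.2% and 42.5%). The median log2 fold change was -0.75 over the 56 genes and -0.23 over all genes. On the 6 libraries of the 2 groups alone, 8 genes were higher and 22 lower, against 71.9% of all genes called (33.9% and 37.9%). With a variance weight per group 8 were higher and 25 lower, against 70.1% (31.5% and 38.5%). With equal totals in all libraries the median of all genes was -0.76, and 6 members were higher and 33 (58.9%) lower, against 80.5% of all genes called (25.9% higher and 54.6% lower). The higher share of calls was then 15.4% of called members and 32.2% of all called genes, in place of 23.7% and 46.2%. With a trend on transcript length and GC content removed, 8 members were higher and 18 (32.1%) lower, against 74.1% of all genes called (36.1% higher and 38.1% lower). The share of members called lower was thus above that of all genes at the deposited scale (51.8% against 41.7%) and below it without the trend. Without the trend fewer members were called in either direction, 46.4% against 74.1% of all genes. The median log2 fold change was then -0.62 over the 56 genes and -0.15 over all genes, so the median of the members stayed below that of all genes.

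Nid1 had 60.8, 1.61 and 0 in HD-WNT5B, against 393, 378 and 398 in HD-Control libraries, with 1 HD-WNT5B library listed at 0 and another at about the value of 1 read. Its fall was the largest on the scale of log2(value + 3) (-5.36, SE 0.98, limma adjusted p = 0.000931). Nid2 had 122, 89.9 and 148 in HD-WNT5B, against 403, 388 and 437 in HD-Control (-1.77, SE 0.21, adjusted p = 4.9e-05). For both nidogens the highest HD-WNT5B library stayed far below the lowest HD-Control library. Col4a1 had 1694, 1277 and 991 in HD-WNT5B, against 3085, 3163 and 3294 in HD-Control libraries (-1.30, SE 0.16, adjusted p = 8.38e-05). Col4a2 had 1186, 1442 and 1497 in HD-WNT5B, against 3722, 3708 and 3871 in HD-Control (-1.46, SE 0.08, adjusted p = 4.39e-07). The genes of this head-to-head pair, whose shared promoter is printed above, were thus both lower without overlap. Col4a5 fell to 39.4, 36.9 and 53.6 in HD-WNT5B, against 100.5, 108 and 102 in HD-Control (-1.21, adjusted p = 0.000829). Col4a3 was listed at 0 in all 3 HD-WNT5B libraries, against 53.4, 41.3 and 61.6 in HD-Control libraries. Col4a6 had 0, 1.61 and 0 in HD-WNT5B, against 50.2, 35.4 and 40.02 in HD-Control libraries, about 1 read over the HD-WNT5B group, so that no fold is given and the order of its fall and that of Nid1 depends on the scale. Col4a4 had 8.94, 0 and 81.5 in HD-WNT5B, against 86.1, 80.4 and 107 in HD-Control, and the third HD-WNT5B library lay within the HD-Control range.

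Of the laminins, Lamc1, the gamma chain of most brain laminins, had 905, 1060.1 and 678 in HD-WNT5B, against 3037, 3205 and 3185 in HD-Control libraries (-1.85, SE 0.14, limma adjusted p = 2.79e-06). Lama5 had 329, 604 and 521 in HD-WNT5B, against 1524, 1629 and 1600.0 in HD-Control (-1.75, SE 0.20, adjusted p = 4.02e-05). Lama1, the alpha chain of embryonic and meningeal laminin-111, had 28.6, 9.64 and 81.5 in HD-WNT5B, against 156, 162 and 179.8 in HD-Control (-2.38, SE 0.58, adjusted p = 0.00501). All HD-WNT5B libraries were below all HD-Control libraries in these genes. Lama3, an alpha chain of epithelial laminin, had 91.2, 0 and 42.9 in HD-WNT5B, against 224, 192 and 166 in HD-Control (-3.06, adjusted p = 0.0282, and 0.0675 on the 6 libraries). Lama2 and Lamb1 were lower by less, at 444 ± 12.7 and 1679 ± 57.03 in HD-WNT5B, against 670.3 ± 18.2 and 2109 ± 6.22 in HD-Control libraries (-0.59 and -0.33, adjusted p = 0.000288 and 0.00026). Lamb2 averaged 2130.3 ± 163 in HD-WNT5B, against 2220.3 ± 106 in HD-Control, and was not called (-0.06, adjusted p = 0.432). Lama4 had 147, 226 and 409.6 in HD-WNT5B, against 208, 207 and 178 in HD-Control, so that the groups overlapped (0.27, adjusted p = 0.47), and its value was -0.27 with equal totals and -0.11 without the third HD-WNT5B library. Without the first HD-WNT5B library it was 0.62 and called higher (limma adjusted p = 0.0465).

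Lamb3, a beta chain of epithelial laminin, moved in the opposite direction to Lama3. It had 578, 626 and 671 in HD-WNT5B, against 193, 198 and 192 in HD-Control libraries (1.67, SE 0.14, limma adjusted p = 5.41e-06). Each HD-WNT5B library was above each HD-Control library.

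Type VI and some fibrillar collagens were also lower. Of 11 fibrillar collagens 5 were lower and 2 higher, against 41.7% and 35.8% of all genes. Col6a1 had 4291, 3376 and 3298 in HD-WNT5B, against 8273, 8469.5 and 8298 in HD-Control libraries (-1.20, SE 0.09, limma adjusted p = 2.47e-06), and 5 of 6 type VI genes were called lower. On the 6 libraries of the 2 groups, 2 fibrillar and 3 type VI genes were lower, against 37.9% of all genes. With the trend on length and GC content removed, Col2a1 alone of the fibrillar collagens remained lower, and Col6a1, Col6a4 and Col6a5 of type VI. Col6a5, a chain that can replace Col6a3 in type VI, had 41.1, 0 and 49.3 in HD-WNT5B, against 172, 177 and 169 in HD-Control (-3.20, adjusted p = 0.0133). Col25a1 had 531, 447 and 122 in HD-WNT5B, against 2762, 2751 and 2699.6 in HD-Control, the third HD-WNT5B library being the lowest (-3.14, SE 0.46, adjusted p = 0.000245). Col2a1, the main collagen of cartilage, had 30.4, 73.9 and 38.6 in HD-WNT5B, against 276, 296 and 321 in HD-Control (-2.66, SE 0.31, adjusted p = 4.93e-05). In Col6a1, Col6a5, Col25a1 and Col2a1 the groups did not overlap. Col14a1 was listed at 0 in all 3 HD-WNT5B libraries, against 41.5, 31.7 and 26.5 in HD-Control libraries, and so was Col28a1, a collagen of peripheral nerve, against 9.57, 19.9 and 17.2. Col3a1 had 21.5, 0 and 0 in HD-WNT5B, against 8.77, 13.3 and 8.62 in HD-Control, and was not called (adjusted p = 0.209). The type I chains scattered, Col1a1 with 161, 28.9 and 34.3 in HD-WNT5B, against 104, 89.2 and 88.04 in HD-Control libraries, and Col1a2 with 274, 363 and 0 in HD-WNT5B, against 224, 231 and 247 in HD-Control. Neither was called (-0.74 and -1.82, adjusted p = 0.256 and 0.316), and without the third HD-WNT5B library, which lists it at 0, Col1a2 came to 0.43 (adjusted p = 0.0332). Without the first HD-WNT5B library Col1a1 and Col3a1 were called lower (adjusted p = 0.000116 and 0.000199). Col18a1 had 46.5, 238 and 277 in HD-WNT5B, against 185, 173 and 190.2 in HD-Control (-0.31, adjusted p = 0.638), and without the first HD-WNT5B library it came to 0.48 (adjusted p = 0.00902).

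The collagens that were higher in HD-WNT5B were led by Col27a1, with 834, 1022 and 607 in HD-WNT5B, against 171, 197 and 153 in HD-Control libraries (2.20, SE 0.20, limma adjusted p = 8.93e-06). Col9a3 had 1553, 1465 and 1926 in HD-WNT5B, against 449, 434 and 413 in HD-Control (1.92, SE 0.12, adjusted p = 7.57e-07). Col11a2 had 3347, 2951 and 3766 in HD-WNT5B, against 1516, 1571 and 1484 in HD-Control (1.13, SE 0.09, adjusted p = 3.4e-06). In all 3 genes every HD-WNT5B library was above every HD-Control library. Col7a1, the collagen of the anchoring fibrils of skin, averaged 916 ± 238 in HD-WNT5B, against 341 ± 25.2 in HD-Control (1.38, adjusted p = 0.000199). Col23a1, a transmembrane collagen, averaged 706 ± 97.3 in HD-WNT5B, against 347 ± 19.4 in HD-Control (1.01, adjusted p = 0.000132). Col9a2 and Col20a1 gave 0.98 and 0.76 (adjusted p = 0.00996 and 0.0129). With equal totals neither was called (adjusted p = 0.173 and 0.416). Col9a2 was not called with the trend on length and GC content removed either (0.36, limma adjusted p = 0.231). Col20a1 was not called on the 6 libraries of the 2 groups (adjusted p = 0.0556) or with a variance weight per group (0.0863). Part of the exons of Col9a3, 6.1% of their length, overlaps those of Tcfl5.

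The promoter windows of Col27a1 and Nid1, the genes with the largest rise and fall in HD-WNT5B on the scale of log2(value + 3), are shown with matches to GGAAA, the core of sites for NFAT factors, which act downstream of calcium and of some Wnt ligands. Capitals mark GGAAA or, on the other strand, TTTCC (RefSeq, GRCm38.p6, 5′ to 3′ on the strand of the gene).
Col27a1 (chr4:63215162-63215461, plus strand): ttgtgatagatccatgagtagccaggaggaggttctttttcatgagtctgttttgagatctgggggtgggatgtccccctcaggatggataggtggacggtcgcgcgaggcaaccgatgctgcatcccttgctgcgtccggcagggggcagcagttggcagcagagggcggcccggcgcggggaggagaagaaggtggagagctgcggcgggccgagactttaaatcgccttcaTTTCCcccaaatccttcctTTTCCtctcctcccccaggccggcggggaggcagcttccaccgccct
Nid1 (chr13:13437352-13437651, plus strand): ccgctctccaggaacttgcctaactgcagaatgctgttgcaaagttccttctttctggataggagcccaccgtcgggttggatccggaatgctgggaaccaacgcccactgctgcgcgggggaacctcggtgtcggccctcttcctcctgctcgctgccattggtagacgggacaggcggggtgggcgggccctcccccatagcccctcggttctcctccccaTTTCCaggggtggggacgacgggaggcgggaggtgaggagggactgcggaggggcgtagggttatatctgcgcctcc
Col27a1 held 2 matches and Nid1 held 1. Windows were found for 40 of the 56 genes, some with more than 1 start, 44 in all. GGAAA or TTTCC occurred in 61.4% of these 44 windows and in 61.3% of 32851 promoter windows of the mouse. GGGCGG or CCGCCC, the GC box of many housekeeping promoters, occurred in 61.4% and 35.7%, CCAAT or ATTGG in 34.1% and 37.4%, and TATAAA or TTTATA in 9.09% and 13.6%. The motifs were searched separately, so a base could belong to matches of more than 1 motif. Nfatc2, a member of the NFAT family, averaged 1812 ± 596 in HD-WNT5B, 1774 ± 19.9 in HD-Control and 2609.5 ± 96.6 in WT-Control libraries and was not called between HD-WNT5B and HD-Control (-0.02, limma adjusted p = 0.929).

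Against WT-Control, HD-WNT5B libraries had 9 genes higher and 35 lower of 56, where 77.9% of all genes tested were called (35.9% higher and 42.1% lower), and the median log2 fold change was -1.30 over the 56 genes and -0.25 over all genes. On the 6 libraries of the 2 groups alone 9 genes were higher and 32 lower, against 72.6% of all genes (34% and 38.6%), and with a variance weight per group 9 and 34, against 71.1% (32.2% and 39%). Libraries did not overlap for 10 genes on the higher and 33 on the lower side, against 79.4% of all genes (36.2% and 43.2%). HD-WNT5B and HD-Control are set against the same WT-Control libraries here and above, and HD-Control libraries stand in both comparisons above, so the comparisons are not independent of one another. Col24a1 had 41.1, 104 and 57.9 in HD-WNT5B, 109, 106 and 111 in HD-Control and 718, 734 and 708 in WT-Control libraries (-3.45 for HD-WNT5B against WT-Control, SE 0.31, limma adjusted p = 7.99e-06). Col12a1 had 85.9, 89.9 and 49.3 in HD-WNT5B, 187, 184 and 179 in HD-Control and 776, 816 and 841 in WT-Control libraries (-3.43, SE 0.24, adjusted p = 1.44e-06). Both were lowest in HD-WNT5B and intermediate in HD-Control libraries, without overlap between any 2 groups, though for Col24a1 the nearest libraries of these 2 groups had 104 and 106. With the trend on length and GC content removed, neither was called between HD-WNT5B and HD-Control (-0.22 and -0.47, limma adjusted p = 0.58 and 0.127). Col24a1 was not called on the 6 libraries of these 2 groups either (adjusted p = 0.138). For HD-WNT5B against WT-Control Nid1 gave -6.002 (adjusted p = 0.000453), Lama3 -4.49 (0.00436), Col3a1 -4.16 (0.000915), Col6a5 -3.74 (0.00609) and Col25a1 -2.999 (0.000327). Col3a1, Col9a1 and Col28a1, all among the lower genes, reached 10 in every library of WT-Control alone. They passed the minimum through that group, so their lower values against WT-Control are no independent result. Col27a1 and Col11a2, lower in HD-Control than in WT-Control, were not called between HD-WNT5B and WT-Control, where the libraries overlapped (0.20 and -0.18, SE 0.20 and 0.09, adjusted p = 0.372 and 0.0875). Col5a3, Col17a1 and Col8a2, higher in HD-Control than in WT-Control, were higher in HD-WNT5B than in WT-Control too (1.81, 1.65 and 1.09, adjusted p = 4.11e-05, 0.00017 and 0.00039). Lamb3, Col9a3, Col9a2, Col7a1 and Col23a1 were also higher (1.58, 1.24, 1.06, 0.93 and 0.70). Col9a2, Col7a1 and Col23a1 were not called with equal totals (adjusted p = 0.132, 0.116 and 0.457). Col9a2 was not called with the trend on length and GC content removed either (0.48, limma adjusted p = 0.123). Col4a1, Col4a2, Col6a1, Lama5 and Lamc1 were lower (-0.89, -1.28, -0.84, -1.13 and -1.81). Lamb2 was not called (0.14, adjusted p = 0.0937) and came to -0.44 with equal totals (adjusted p = 0.000662).

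Ratios between chains of a trimer or network within a library do not depend on the scaling of that library. The trend on length and GC content was not removed from them. Without that trend, HD-WNT5B against HD-Control gave log2 fold changes of -0.77 for Col11a1 and 1.04 for Col11a2, in place of -1.53 and 1.13. Lamc1 and Lamb1 then gave -1.43 and 0.01, in place of -1.85 and -0.33. Per kb of transcript, Lamc1 over Lamb1 was 0.408, 0.497 and 0.297 in HD-WNT5B, 1.09, 1.15 and 1.15 in HD-Control and 1.05, 1.08 and 1.03 in WT-Control libraries, so the gamma chain stood well below the beta chain in each HD-WNT5B library and near it elsewhere. Lamb2 over Lamb1, the mature over the embryonic beta chain, was 1.28, 1.26 and 1.37 in HD-WNT5B, 1.08, 1.03 and 1.14 in HD-Control and 0.921, 0.915 and 0.887 in WT-Control libraries, and the 3 groups did not overlap. Col4a2 over Col4a1 was 0.718, 1.16 and 1.55 in HD-WNT5B, 1.24, 1.20 and 1.21 in HD-Control and 1.39, 1.51 and 1.40 in WT-Control libraries. It was lower in every HD-Control than in every WT-Control library, and the HD-WNT5B libraries spanned both. Col11a1 over Col11a2 was 0.0616, 0.0897 and 0.0175 in HD-WNT5B, 0.308, 0.292 and 0.286 in HD-Control and 0.252, 0.245 and 0.294 in WT-Control libraries. Col6a2 over Col6a1 was 0.201, 0.295 and 0.183 in HD-WNT5B, 0.134, 0.127 and 0.132 in HD-Control and 0.168, 0.167 and 0.166 in WT-Control libraries. HD-WNT5B libraries were thus lowest in the type XI ratio and highest in the type VI ratio. Nid2 over Nid1 was 1.28, 1.28 and 1.37 in HD-Control and 0.506, 0.527 and 0.537 in WT-Control libraries, where Nid2 exceeded Nid1 per kb in the HD-Control and not in the WT-Control libraries. Groups of 3 allow no exact permutation p below 0.10, and none is given for these ratios.

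**Figure D4:**
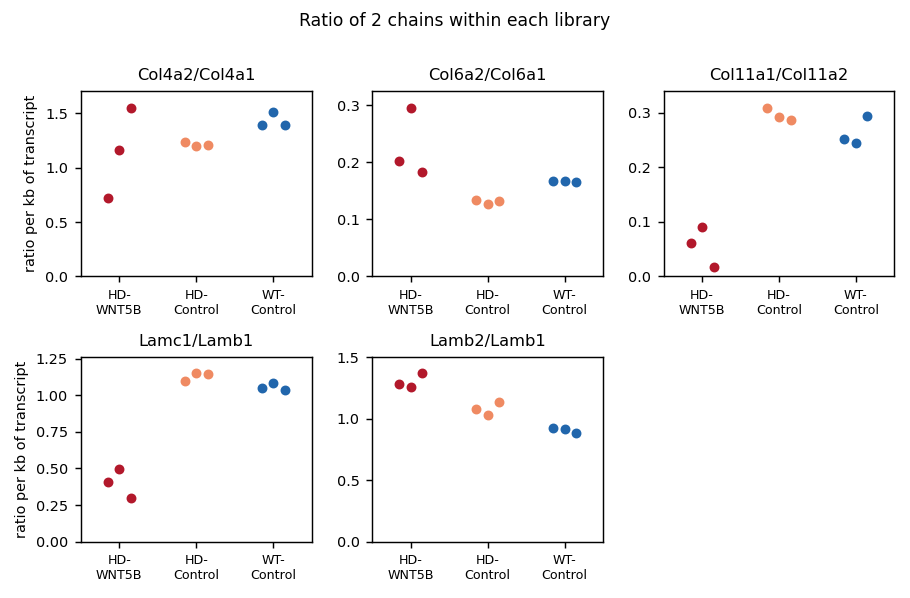
Ratio of the values per kb of transcript of 2 chains within each library, on linear axes from 0, with HD-WNT5B, HD-Control and WT-Control from left to right and 1 point per library. Lamc1/Lamb1 and Col11a1/Col11a2 are low in all 3 HD-WNT5B libraries, and Lamb2/Lamb1 is highest there, at 1.26 to 1.37.

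Transcript length moved with the HD-WNT5B comparison. Members are long, with a median transcript of 6.05 kb against 3.40 kb for all genes tested. Over all genes, the median log2 fold change of HD-WNT5B against HD-Control was 1.05 below 2 kb, -0.54 at 4 to 5 kb and -1.16 at 8 kb and over. Between HD-Control and WT-Control it was 0.07 below 2 kb and 0.00 at 8 kb and over. Of 5896 genes of at least 4 kb, 59.4% were lower in HD-WNT5B than in HD-Control, with a median of -0.81. The 51 members of that length had a median of -0.97, with 29 called lower and 7 higher, so that their share of lower calls was near that of all genes of that length. Of the 18 members lower in HD-WNT5B once the trend on length and GC content was removed from each library, 17 were among those 29. Lama2 and Lamb1 then came to 0.25 and 0.01 (limma adjusted p = 0.173 and 0.871), and Lama3 and Col4a4 were no longer called (adjusted p = 0.0679 and 0.101). Between HD-Control and WT-Control 12 of the 14 lower and all 8 higher genes remained called after that removal. What part of the lower values in HD-WNT5B goes with length was not tested further.

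**Figure D5:**
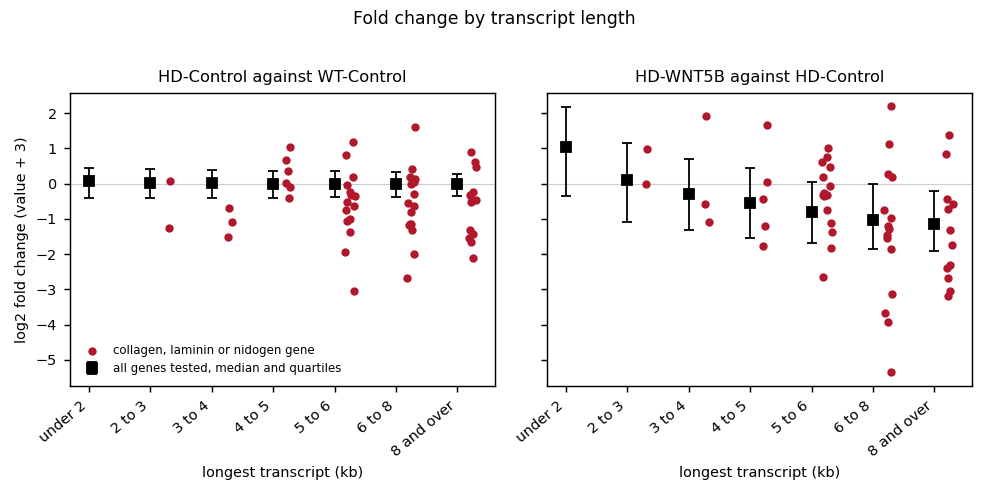
Log2 fold change against length of the longest annotated transcript in 7 bins, HD-Control against WT-Control at the left and HD-WNT5B against HD-Control at the right. Black squares with whiskers are the median and quartiles of all genes tested, and red points are collagen, laminin and nidogen genes; the squares run down with length at the right, 1.05 to -1.16, and stay near 0 at the left.

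Genes that make, hold or cut these matrix proteins were counted in the same fit. In that fit 24.5% of all genes were higher and 20.7% lower in HD-Control than in WT-Control. Between HD-WNT5B and HD-Control 35.8% of all genes were higher and 41.7% lower. Of 31 genes of collagen synthesis and processing, 6 were higher and 8 lower in HD-Control than in WT-Control, and 9 were higher and 10 lower in HD-WNT5B than in HD-Control, with medians of -0.26 and -0.34, against 0.02 and -0.23 over all genes. P4ha1, the catalytic subunit of the prolyl 4-hydroxylase that stabilises the triple helix, had 8344, 10199.7 and 9753 in HD-WNT5B, 1362, 1377 and 1417 in HD-Control and 3356, 3390.2 and 3418 in WT-Control libraries. It was low in HD-Control and high in HD-WNT5B libraries without overlap (-1.29 for HD-Control against WT-Control and 2.76 for HD-WNT5B against HD-Control, limma adjusted p = 3.4e-06 and 2.72e-09). Pxdn, the peroxidase that crosslinks type IV collagen, averaged 1999 ± 320.1 in HD-WNT5B, against 8284 ± 13.8 in HD-Control libraries (-2.06, adjusted p = 1.16e-07). Colgalt1, which adds galactose to collagen, averaged 1156 ± 13.99 in HD-WNT5B, against 2605 ± 79.2 in HD-Control (-1.17, adjusted p = 4.95e-08).

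Of 23 partners of the basement membrane 2 were higher and 6 lower in HD-Control than in WT-Control, and 3 were higher and 12 lower in HD-WNT5B than in HD-Control, with medians of -0.33 and -0.81. Over all genes the shares were 24.5% higher and 20.7% lower in the first comparison, and 35.8% and 41.7% in the second. Fn1, fibronectin, averaged 807 ± 117 in HD-WNT5B, 1747 ± 51.6 in HD-Control and 3316 ± 15.7 in WT-Control libraries and was lower in both comparisons (-1.12 and -0.92, limma adjusted p = 8.83e-06 and 0.000134). Sparc, a matricellular protein that binds collagen, averaged 21730.3 ± 174 in HD-Control, against 12992 ± 163 in WT-Control libraries (0.74, adjusted p = 2.32e-05). Among 26 collagen and laminin receptors 2 were higher and 10 lower in HD-Control than in WT-Control, and 9 were higher and 11 lower in HD-WNT5B than in HD-Control (medians of -0.31 and -0.13). Dag1, dystroglycan, the receptor that anchors laminin at astrocyte endfeet, averaged 1909 ± 463 in HD-WNT5B, against 9035 ± 95.8 in HD-Control libraries (-2.27, adjusted p = 6.05e-07). Ddr1, a collagen receptor kinase, averaged 1671 ± 172 in HD-WNT5B, against 4503 ± 101 in HD-Control (-1.43, adjusted p = 1.8e-07), while Itgav, integrin alpha V, averaged 11733 ± 1052 in HD-WNT5B, against 4659 ± 147 in HD-Control (1.33, adjusted p = 1.24e-07).

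Of 16 matrix-cleaving enzymes and their inhibitors 5 were higher and 4 lower in HD-Control than in WT-Control, and 6 were higher and 4 lower in HD-WNT5B than in HD-Control (medians of -0.05 and -0.10). Over all genes the shares were 24.5% higher and 20.7% lower in the first comparison, and 35.8% and 41.7% in the second. Mmp14, a membrane-bound metalloproteinase that cleaves collagens and laminins, had 1451, 1511 and 1844 in HD-WNT5B, against 759.8, 726 and 824 in HD-Control libraries (1.05, SE 0.11, limma adjusted p = 2.33e-05), and was not called between HD-Control and WT-Control (adjusted p = 0.338). Timp3, an inhibitor bound to the matrix, averaged 2343 ± 189.8 in HD-WNT5B, against 10342 ± 79.00 in HD-Control (-2.14, adjusted p = 2.63e-09). Timp2, an inhibitor that also takes part in activating a gelatinase, averaged 29423 ± 159 in HD-Control, against 13162 ± 166 in WT-Control libraries (1.16, adjusted p = 2.95e-07).

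Markers of the cells that make these proteins differed between groups as well, and their part in the results above was not tested. Beside their counts stand the shares of all genes, 24.5% higher and 20.7% lower in HD-Control against WT-Control. In HD-WNT5B against HD-Control these shares were 35.8% and 41.7%. In HD-Control against WT-Control, 0 of 14 fibroblast and meninges markers were higher and 4 lower, with summed levels of 2838 to 2875 in HD-Control and 3881 to 3970 in WT-Control libraries. Of 13 mural cell markers 1 was higher and 4 lower, with sums of 10096 to 10269 in HD-Control and 14560 to 14614 in WT-Control libraries. Of 15 endothelium markers 2 were higher and 8 lower, with sums of 25825 to 25920 in HD-Control and 28147 to 28412 in WT-Control libraries. These 3 lists had lower sums in HD-Control libraries, beside the lower fibrillar collagens and the higher Lama5. Col4a1 and Col4a2 were uncalled in the fit over all 9 libraries and higher in HD-Control on the 6 control-virus libraries. Of 13 astrocyte markers 2 were higher and 9 lower, with sums of 233774 to 235287 in HD-Control and 358748 to 361432 in WT-Control libraries. Microglia markers were lower in 11 of 11 and oligodendrocyte markers in 9 of 10. In HD-WNT5B against HD-Control, 7 endothelium markers were higher and 5 lower, with sums of 56599 to 62925 in HD-WNT5B libraries. Mural markers were 4 higher and 5 lower, with sums of 5101 to 6774 in HD-WNT5B libraries, and fibroblast and meninges markers 2 higher and 4 lower, with sums of 3109 to 3532 in HD-WNT5B libraries. The sums do not describe their lists here, since the median log2 fold change was -0.04 over the endothelium and -1.03 over the fibroblast and meninges markers, and single genes carried them. Cldn5, a tight junction protein of endothelium, averaged 28897 ± 2268 in HD-WNT5B and 1679 ± 36.03 in HD-Control libraries, and Cdh5, its adherens junction cadherin, 116 ± 24.3 in HD-WNT5B and 1220.2 ± 27.2 in HD-Control libraries. Bgn, biglycan, of the fibroblast list averaged 1687 ± 246 in HD-WNT5B and 357 ± 10.02 in HD-Control libraries. Astrocyte markers were 5 higher and 6 lower, with sums of 218270 to 234791 in HD-WNT5B libraries. Of the defining markers of fibroblasts, Dcn, Lum, Ogn, Aldh1a2, Slc22a6, Slc47a1 and Twist1 were listed at 0 in at least 1 HD-WNT5B library, and so were Abcc9 and Anpep of the mural list and no gene of the endothelium list. Choroid plexus markers, 4 of 9 higher and 2 lower, summed to 13136 to 15834 in HD-WNT5B, 1946 to 2059 in HD-Control and 1947 to 2017 in WT-Control libraries, and Ttr, transthyretin, accounted for most of it with 12656 ± 1728 in HD-WNT5B libraries.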

How the data were processed

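The authors deposited 1 table per library with a normalised read count for each Ensembl gene, on a linear scale that is never negative (unit signal). Reads were aligned with STAR to mm10, per the submitters' processing notes; for the counting program, annotation and normalisation: not given in the sources used here. The kit does not keep the strand, per the labels' protocols. Gene symbols, transcript lengths and GC content came from GENCODE M21, and promoter sequences from RefSeq tables. Genes with at least 10 in 3 or more of 9 libraries were kept. Log2(value + 3) was fitted over all 9 libraries with limma 3.58.1 in R 4.3.3 (trended moderation), with Benjamini-Hochberg adjustment over all 15411 genes at 0.05. A fold change on this scale understates the change of low genes. Tables and figures were made with Python 3.11.15, and the fit was tested on simulated data.

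Members and gene lists were chosen with earlier results of these data known. In each comparison up to 10 higher and 10 lower called genes with the largest changes and no overlap were named. Another 16 members were named whatever their values, and up to 4 genes per other list. Other genes named were chosen after their values were seen. Alternatives changed the pseudocount, the minimum, the scaling, the spread model, the libraries in the fit and a trend on length and GC. A planned test on read counts was not run, because the deposited values are not whole reads. For 1 family gene and 1 marker gene, values are not reported here; both stay in the counts.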

Additional observations from a re-analysis of the deposited data

How the results depend on the processing

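Between HD-Control and WT-Control the 56 genes gave 13 higher and 34 lower with a variance weight per group, and 14 higher and 34 lower on the 6 libraries compared, and all genes gave 6635 and 6710 higher and 6144 and 6198 lower. Leaving out any 1 library gave 5 to 11 higher and 13 to 23 lower. Between HD-WNT5B and HD-Control, removing the length and GC trend left 18 lower, and leaving out 1 library gave 8 to 12 higher and 22 to 30 lower. Against WT-Control, leaving out 1 library gave 9 to 10 higher and 31 to 39 lower in HD-WNT5B. Among the named genes these directions turned. Lamc1 in HD-Control against WT-Control came to -0.0239 with upper-quartile factors. Leaving out 1 library at a time, Col18a1 in HD-WNT5B ranged over -0.76 to 0.48 against HD-Control and -1.002 to 0.25 against WT-Control, with the upper value without the first HD-WNT5B library. Against HD-Control Col1a2 ranged over -3.04 to 0.43 and Lama4 over -0.11 to 0.62, with 0.43 and -0.11 without the third HD-WNT5B library. With equal totals Lama4 came to -0.27 against HD-Control and Lamb2 to -0.44 against WT-Control. With the length and GC trend removed Lama2 and Lamb1 came to 0.249 and 0.0134 against HD-Control, and Lama4 and Lamb1 to 0.055 and 0.0101 against WT-Control. Apart from the libraries and scaling that each setting names, the cause was not tested. Same-numbered libraries did not deviate together (correlations of -0.0782 to 0.0215), so they share a number only. With the replicate block the 56 genes gave 6 higher and 13 lower in HD-Control against WT-Control, 9 and 27 in HD-WNT5B against HD-Control, and 9 and 35 in HD-WNT5B against WT-Control. A count test on recovered reads was not run. Lower depth and more zeros in HD-WNT5B libraries limit the values of low genes there, and 19 of the 56 genes had an SD above 1 on the log2 scale in that group.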
